A study of Mus musculus with 8 samples.

Results

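Nuclear receptors are transcription factors that bind DNA and, in many cases, a small lipid-soluble ligand. In the liver they sense fatty acids, oxysterols, xenobiotics and hormones, and many of them share the partner RXR and a common set of coactivators and corepressors. The data described here are the RNA and nascent-transcription levels of 34 nuclear receptor genes, out of 25124 gene rows in the expression table. They were chosen by symbol as the family members other than FXR (Nr1h4), RXRα, RXRβ, SHP (Nr0b2), the NR4A genes and the clock receptors. All 34 had a row.

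The study asked what GW4064, a synthetic FXR agonist, does to transcription in mouse liver. For RNA-seq, livers came from wild-type male mice of the C57BL/6 strain, 1 h after GW4064 at 30 mg/kg or vehicle and after an overnight fast, with 2 libraries per treatment. Each library pooled liver RNA from 2 mice, so the spread between libraries is that of pools. For global run-on sequencing (GRO-seq), which reads RNA still being made by engaged polymerase, there was 1 library each from Fxr-LKO livers with GW4064, Fxr-LKO livers with vehicle, Fxr-Flox livers with GW4064 and Fxr-Flox livers with vehicle. Those mice were also fasted and treated for 1 h. Fxr-LKO mice carry floxed Fxr alleles deleted by Albumin-Cre, and the study calls them liver-specific knockouts. Fxr-Flox mice carry the same alleles without Cre, and the labels call them WT. The vehicle is DMSO in the labels and corn oil in the study's methods.

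The RPKM values (reads scaled by the length of the gene row and by the library total) rest on 13924464 to 14047118 reads per RNA-seq library, on 5069384 and 5141651 reads in the Fxr-LKO GRO-seq libraries with GW4064 and vehicle, and on 10593306 and 14173688 reads in the Fxr-Flox libraries with GW4064 and vehicle. The row of the targeted gene, Nr1h4, had 20.6 and 16.7 RPKM in Fxr-LKO livers with GW4064 and vehicle, against 4.23 and 15.1 RPKM in Fxr-Flox livers with GW4064 and vehicle. That row spans the whole gene, so it does not check the deletion of a part of it. Nr0b2, a classical FXR target, had 1.19 and 0.118 RPKM in Fxr-LKO livers (20 and 2 reads), against 36.6 and 3.65 RPKM in Fxr-Flox livers. Its level in the Fxr-LKO libraries was thus far under that in the Fxr-Flox libraries with either treatment. The liver label matched the hepatocyte markers, whose summed level was 303 and 346 RPKM with GW4064 and 335 and 336 RPKM with vehicle in RNA-seq. None of the tested markers of 6 liver cell types passed limma in RNA-seq. At an unadjusted p under 0.05 there were 1 of 6 hepatocyte, 1 of 6 stellate cell and 1 of 2 cholangiocyte markers tested. Of all genes, 21.2% had such a p. With limma-voom 1 hepatocyte marker was lower, where 4.22% of all genes were.

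The receptors with a read spanned more than 4 orders of magnitude in RNA-seq. The low end was Rorb alone, at 0.00125 RPKM and at most 3 reads per library, with Vdr next at 0.013 RPKM. Levels are densities over whole rows, introns included, so a long gene can have many reads at a low RPKM. Esrrg at 0.411 RPKM had 2736 to 4003 reads per library, and Nr1h2 at 6.05 RPKM had 356 to 386. Hnf4a averaged 22.7 RPKM over the 4 libraries, Nr1i3 22.6, Nr2f6 11.7 and Ppara 10.6, and these were the only 4 genes of the set over 10 RPKM. Next in order came Nr1i2 at 7.25 RPKM, Nr1h3 at 6.60, Nr1h2 at 6.05, Esrra at 5.02, Nr2f2 at 4.11 and Nr3c1 at 3.07. Hnf4a and Nr1i3 exchanged places with treatment: Hnf4a was above Nr1i3 in both GW4064 libraries and below it in both vehicle libraries. At the other end, Nr2e3 and Nr0b1 had no read in any of the 8 libraries. In RNA-seq a count of 0 allows up to 0.0295 RPKM for Nr2e3 and 0.0516 RPKM for Nr0b1 (3 reads in a library, counting error only). Nr5a1, the steroidogenic factor of adrenal and gonad, had no read in RNA-seq, where a count of 0 allows up to 0.0110 RPKM, and 3 reads in all of GRO-seq.

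**Figure D1:**
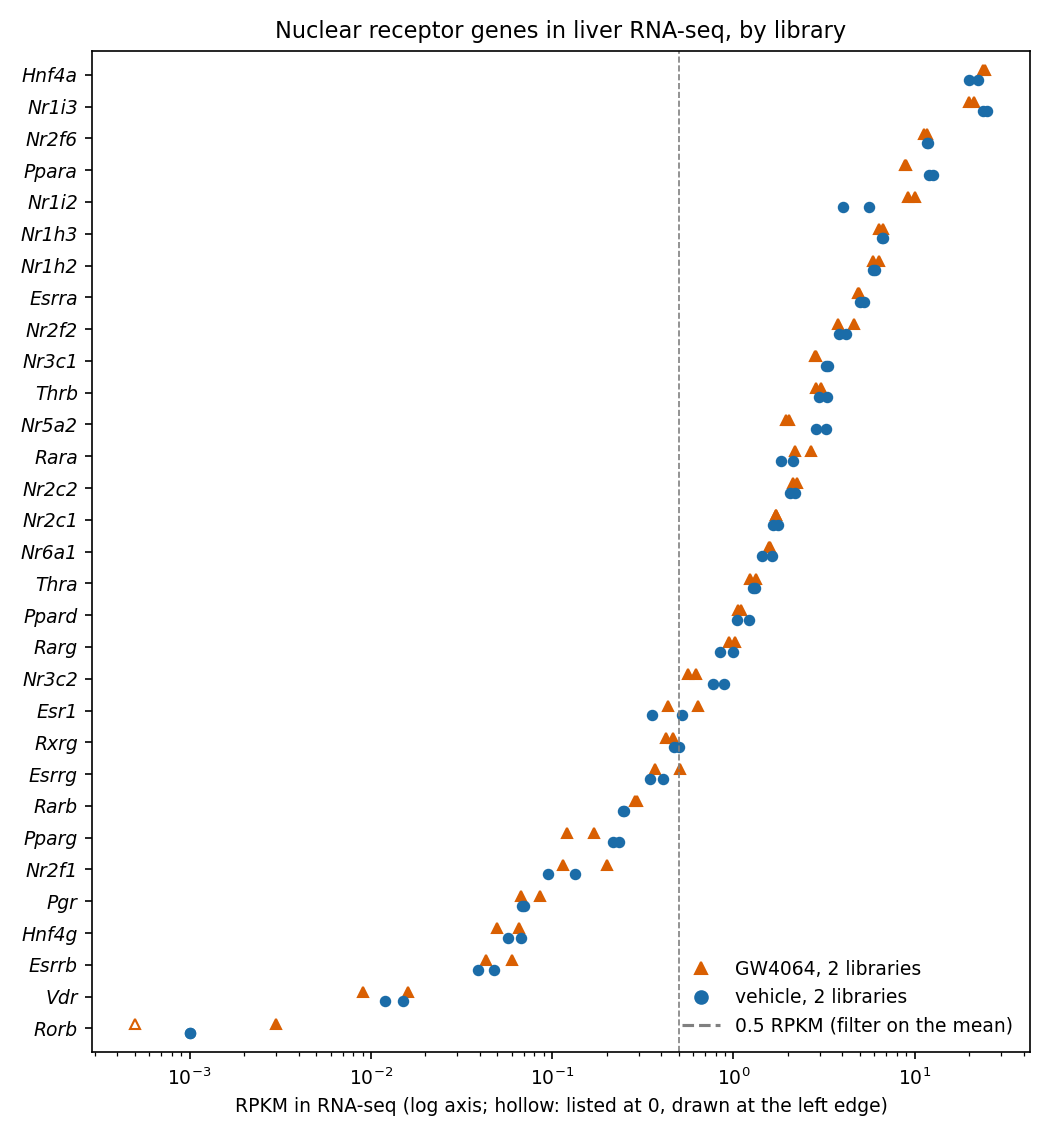
RNA-seq level in RPKM (log axis) of the 31 receptor genes with a read in RNA-seq, 1 row per gene, sorted by the mean of 4 libraries, with triangles for the 2 GW4064 libraries and circles for the 2 vehicle libraries. Both triangles lie to the right of both circles for Nr1i2 and to the left for Ppara and Nr5a2, while Nr1h3 at 6.39 to 6.71 RPKM shows all 4 libraries together.

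The same order was largely seen in nascent RNA. Across the 30 genes above 0 in all 8 libraries, the vehicle RNA-seq mean and the vehicle Fxr-Flox GRO-seq level had a Spearman correlation of 0.96, given as a description, since both are densities over the same rows, introns included. Nr1i3 had the highest mean in GRO-seq (57.6 RPKM over 4 libraries), followed by Hnf4a (26.9), Ppara (14.4) and Nr1i2 (8.35). Nr2f6, the orphan receptor EAR2, stood at 11.7 RPKM in RNA-seq but 5.39 RPKM in GRO-seq, and Rxrg at 0.466 RPKM in RNA-seq but 0.120 RPKM in GRO-seq. Rorb went the other way, with 0.0395 RPKM in GRO-seq and at most 3 reads per RNA-seq library.

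In RNA-seq, 20 of the 34 genes passed the filter of a mean of at least 0.5 RPKM, and 14 did not. Of the 20, Ppara alone was lower with GW4064 at an adjusted p under 0.05 in limma, fitted over 11408 genes with Benjamini-Hochberg adjustment, and none was higher. Over all genes fitted, 1.15% were lower and 2.13% higher. At an unadjusted p under 0.05 there were 6 of the 20 receptors and 21.2% of all genes. Among these 20, GW4064 values lay wholly above vehicle values for 3 receptors (Nr1i2, Hnf4a and Rara) and wholly below for 7 (Ppara, Nr1i3, Nr5a2, Esrra, Nr3c1, Nr3c2 and Nr2f6), against 26% and 28.1% of all genes. The median absolute log2 change was 0.08 for the receptors and 0.12 for all genes. With 2 libraries per group an exact permutation test cannot go below p = 0.333, so the p-values below are limma's.

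In GRO-seq, where each group is 1 library and no test was made, 21 of the receptors had a mean of at least 0.5 RPKM and at least 20 reads in a library of each pair. With 0.1 RPKM added, GW4064 over vehicle passed 1.5-fold upwards for 3 receptors and downwards for 0 in Fxr-LKO livers, where 2.88% of genes passed upwards and 3.44% downwards. In Fxr-Flox livers 1 receptor passed upwards and 3 downwards, where 6.4% of genes passed upwards and 7.17% downwards. The intervals given with GRO-seq ratios are 95% exact binomial intervals of the reads, and they cover counting error only.

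**Figure D2:**
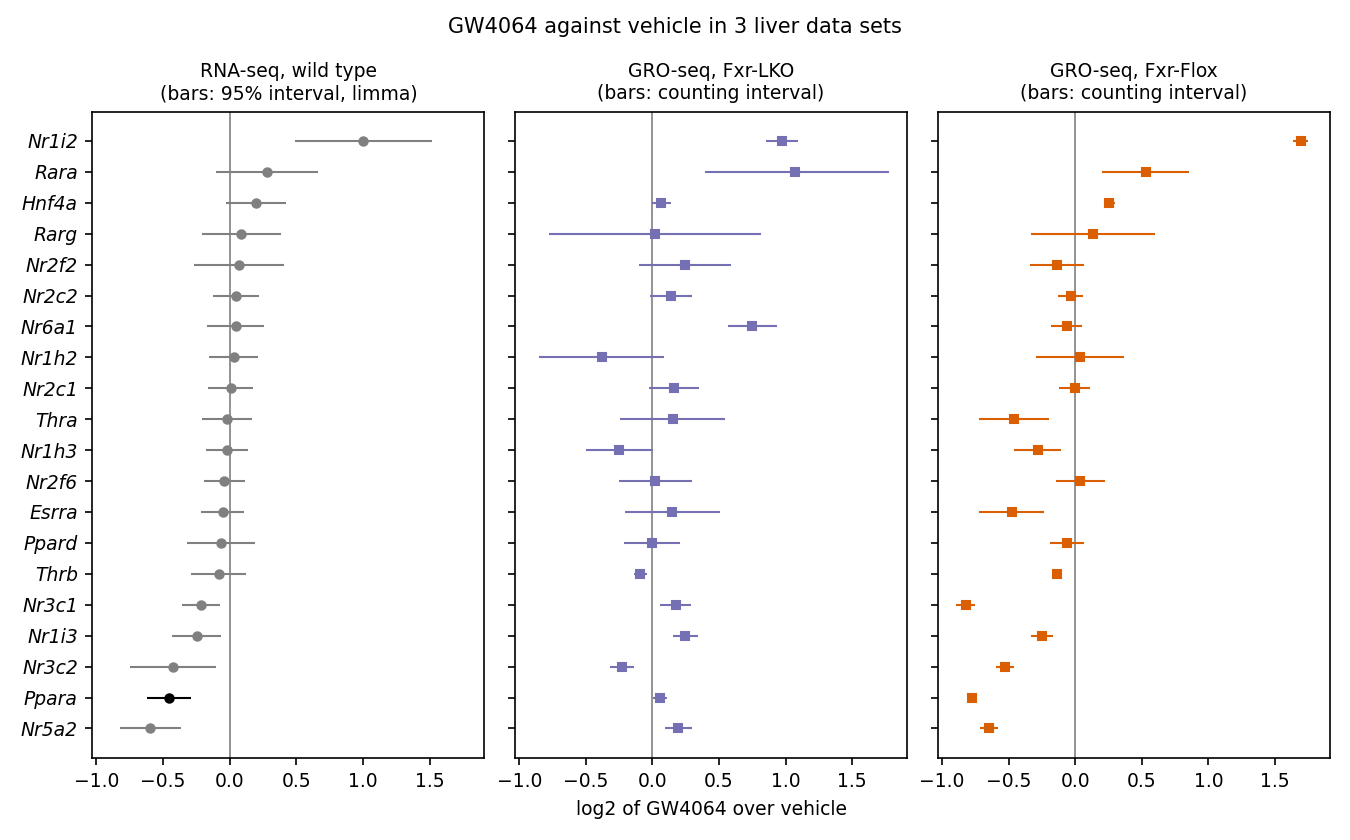
Log2 of GW4064 over vehicle for the 20 receptor genes that passed the RNA-seq filter, in RNA-seq of wild-type liver (left; bars are 95% limma intervals, black for the gene past the threshold), GRO-seq of Fxr-LKO liver (middle) and GRO-seq of Fxr-Flox liver (right; bars in both are 95% counting intervals of 1 library against 1). Ppara sits at -0.46, 0.06 and -0.77 from left to right, and Nr1i2 at 1.00, 0.97 and 1.69.

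The xenobiotic receptors had the largest difference of the set. Nr1i2 encodes PXR, which is activated by drugs and bile acids and induces drug-metabolizing enzymes. Nr1i2 had 10.1 and 9.25 RPKM in the GW4064 RNA-seq libraries, against 5.64 and 4.02 RPKM in the vehicle libraries. The groups did not overlap, and the vehicle libraries differed from each other more than the GW4064 libraries did. The ratio of the means was 2.00, and the log2 change was 1.00 ± 0.18 (SE; 95% interval 0.49 to 1.52), which missed the threshold (adjusted p = 0.0907, limma). It passed with limma-voom on rebuilt reads (adjusted p = 0.0196), where 4.58% of all genes were higher, and when rows under 300 bases were left out (adjusted p = 0.0305, limma), where 3.92% were higher. These were the only 2 of 17 alternatives in which it passed. With limma-voom and no filter it did not (adjusted p = 0.0948).

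In GRO-seq, Nr1i2 had 6.70 and 3.42 RPKM in Fxr-LKO livers with GW4064 and vehicle, and 17.8 and 5.50 RPKM in Fxr-Flox livers with GW4064 and vehicle. GW4064 was thus above vehicle in both genotypes. The ratio was 1.96 in Fxr-LKO livers (interval 1.80 to 2.14; 1579 and 816 reads) and 3.23 in Fxr-Flox livers (interval 3.11 to 3.36; 8759 and 3624 reads). Nr1i2 was also, of the 21 receptors, the one furthest below Fxr-Flox in Fxr-LKO livers with GW4064, with an Fxr-LKO to Fxr-Flox ratio of 0.377 (interval 0.357 to 0.398), and it was at 0.621 with vehicle (interval 0.575 to 0.670).

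Nr1i3 encodes CAR, the partner sensor of xenobiotics in hepatocytes. Nr1i3 had 21.3 and 20.1 RPKM in the GW4064 RNA-seq libraries, against 24.0 and 25.2 RPKM in the vehicle libraries. The groups did not overlap, and the log2 change of -0.25 ± 0.07 (SE) did not pass the threshold (adjusted p = 0.159, limma). In GRO-seq the Nr1i3 level was 78.4 and 66.1 RPKM in Fxr-LKO livers with GW4064 and vehicle, against 39.2 and 46.6 RPKM in Fxr-Flox livers with GW4064 and vehicle. Both Fxr-LKO libraries were above both Fxr-Flox libraries, and the Fxr-LKO to Fxr-Flox ratio was 2.00 with GW4064 (interval 1.88 to 2.13) and 1.42 with vehicle (1656 and 3221 reads). Tomm40l on the opposite strand shares 1042 bases, or 21.4%, of the Nr1i3 row, and whether the values count reads by strand is not given in the sources used here. Tomm40l had 60.6 and 44.3 RPKM in Fxr-LKO livers and 30.4 and 38.6 RPKM in Fxr-Flox livers with GW4064 and vehicle. Its Fxr-LKO to Fxr-Flox ratio with GW4064, 1.99, was close to that of Nr1i3. With vehicle its ratio was 1.15 (interval 1.07 to 1.23), below the 1.42 of Nr1i3. The part of this overlap in the Nr1i3 values was not tested.

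**Figure D3:**
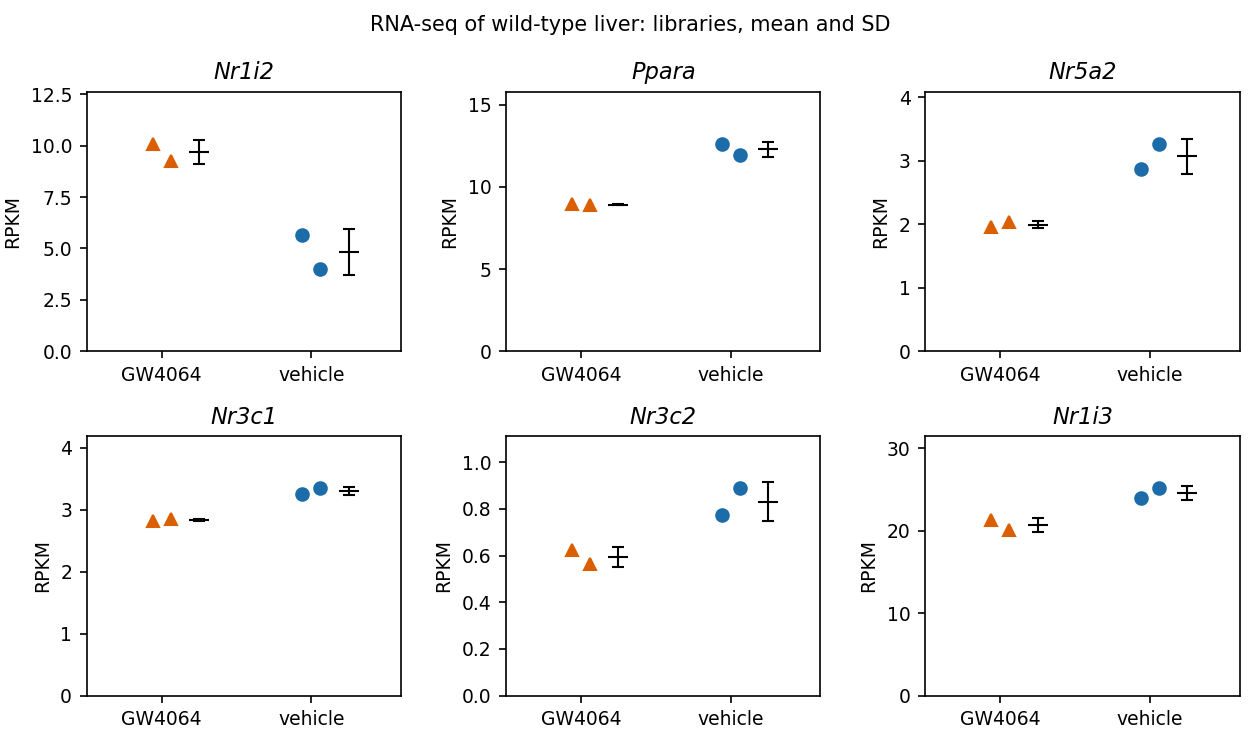
RNA-seq level (RPKM, linear axes from 0) of 6 receptor genes in the 2 GW4064 libraries (triangles, left) and the 2 vehicle libraries (circles, right), with mean and SD beside them. In each panel the groups do not overlap, with Nr1i2 higher with GW4064 (mean 9.67 against 4.83 RPKM) and the other 5 genes lower.

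Of the peroxisome proliferator-activated receptors, Ppara encodes the fatty acid sensor that drives hepatic fatty acid oxidation in fasting. Ppara had 8.94 and 8.92 RPKM in the GW4064 RNA-seq libraries, against 12.6 and 12.0 RPKM in the vehicle libraries. The groups did not overlap, and the 2 GW4064 libraries were nearly equal. Ppara fell with GW4064, by 0.46 ± 0.06 on the log2 scale (SE; 95% interval -0.62 to -0.29; adjusted p = 0.0492, limma), to a mean of 8.93 ± 0.02 RPKM against 12.3 ± 0.46 RPKM (SD, n = 2 each). The value lay just inside the threshold. The call was lost when any single library was left out, with a log2 change of -0.49 to -0.42. Such a fit has 1 library in a group, and nearly all calls over all genes were lost with it, so the loss is not particular to Ppara.

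In GRO-seq, Ppara had 15.1 and 14.5 RPKM in Fxr-LKO livers with GW4064 and vehicle, and 10.4 and 17.8 RPKM in Fxr-Flox livers with GW4064 and vehicle. The Fxr-LKO libraries were close to each other, with a ratio of 1.04 (interval 1.00 to 1.08). The Fxr-Flox ratio was 0.586 (interval 0.570 to 0.601; 7838 and 17909 reads), below 1 as in RNA-seq.

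Ppard, the broadly expressed δ form, had 1.10 and 1.06 RPKM with GW4064 and 1.22 and 1.05 RPKM with vehicle in RNA-seq, so the groups overlapped. Pparg, the adipocyte form, was under the filter, with 0.121 and 0.170 RPKM in the GW4064 libraries and 0.218 and 0.235 RPKM in the vehicle libraries. Its groups did not overlap at this low level, where the share of all genes without overlap was not counted. In GRO-seq, Pparg had 0.227 and 0.270 RPKM in Fxr-LKO livers with GW4064 and vehicle (149 and 180 reads; ratio 0.841, interval 0.671 to 1.05), and 0.120 and 0.326 RPKM in Fxr-Flox livers (165 and 598 reads; ratio 0.368, interval 0.309 to 0.439). The Fxr-Flox library with GW4064 was thus the lowest of the 4.

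The sequences upstream of Ppara, Nr1i2 and Nr1i3 are shown because these receptors carried the RNA-seq call, the largest difference between treatments and the highest Fxr-LKO to Fxr-Flox ratio with GW4064 among the 21 receptors counted. They are the 250 bases before the annotated start, from RefSeq on GRCm38.p6, the patch release of mm10, at chr15:85735526-85735775 on the plus strand for Ppara, chr16:38294825-38295074 on the minus strand for Nr1i2 and chr1:171213720-171213969 on the plus strand for Nr1i3. Capitals mark a match to an inverted repeat of the receptor half-site.
Ppara: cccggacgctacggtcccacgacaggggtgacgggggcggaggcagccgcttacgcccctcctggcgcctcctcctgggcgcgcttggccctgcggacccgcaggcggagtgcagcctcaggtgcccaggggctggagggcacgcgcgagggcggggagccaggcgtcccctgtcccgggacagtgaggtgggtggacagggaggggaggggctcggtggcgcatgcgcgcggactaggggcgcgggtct
Nr1i2: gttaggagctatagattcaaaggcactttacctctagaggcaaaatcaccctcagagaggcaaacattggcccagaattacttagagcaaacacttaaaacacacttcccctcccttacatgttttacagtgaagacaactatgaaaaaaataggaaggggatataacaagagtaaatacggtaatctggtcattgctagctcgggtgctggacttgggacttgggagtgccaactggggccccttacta
Nr1i3: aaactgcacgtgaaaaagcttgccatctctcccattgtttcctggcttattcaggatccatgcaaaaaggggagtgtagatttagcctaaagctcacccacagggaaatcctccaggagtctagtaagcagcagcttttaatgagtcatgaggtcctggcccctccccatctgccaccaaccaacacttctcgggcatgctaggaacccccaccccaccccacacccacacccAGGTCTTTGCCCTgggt
The Ppara window is 76.4% G and C, the Nr1i2 window 44.0% and the Nr1i3 window 53.2%. Nr1i3 was the only one of 30 receptors with a listed promoter to hold AGGTCANTGACCT, the inverted repeat with 1 spacer base (IR1) to which FXR with RXR binds, with at most 2 mismatches in its 12 fixed letters. The match begins 17 bases before the start, and 0.959% of all 32851 promoters of this length hold such a match on either strand. The exact half-site AGGTCA was in 5 of the 30 (Pparg, Thrb, Rxrg, Nr6a1 and Nr0b1), or 16.7%, against 14% of all promoters. The direct repeat with 1 spacer base, AGGTCANAGGTCA, was matched with at most 2 mismatches in Thrb alone, against 3.24% of all promoters, and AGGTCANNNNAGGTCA in none, against 2.57%. An IR1 or direct repeat match can include a half-site. These are matches of letters only, and the Ppara and Nr1i2 windows held none of them. Where several promoters were listed for a receptor, only the one nearest to its row start was read. The start used lay 6153 bases from the row start for Nr2f2, 1015 for Nr2c2 and 193 for Pparg.

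**Figure D4:**
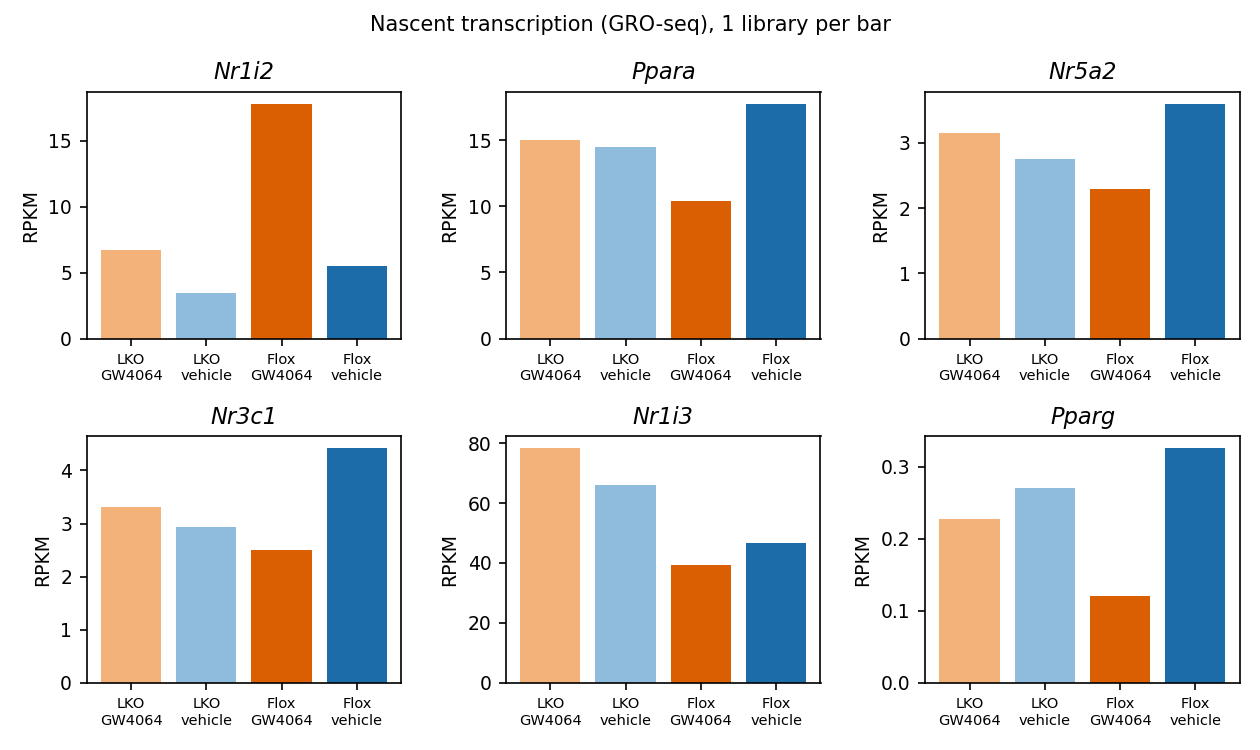
GRO-seq level (RPKM, linear axes from 0) of 6 receptor genes, 1 library per bar and so no error bars, with Fxr-LKO livers (GW4064, vehicle) left of Fxr-Flox livers (GW4064, vehicle). The Fxr-Flox library with GW4064 is the highest bar for Nr1i2 at 17.8 RPKM and the lowest for the other 5 genes.

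Among the hepatocyte factors, Nr5a2 (LRH-1) takes part in bile acid and cholesterol metabolism. Nr5a2 had 1.96 and 2.03 RPKM in the GW4064 RNA-seq libraries, against 2.88 and 3.26 RPKM in the vehicle libraries. Again both GW4064 libraries were the lower ones, and the log2 change of -0.60 ± 0.08 (SE) lay just outside the threshold (adjusted p = 0.0558, limma). Nr5a2 passed in 5 of 17 alternatives. Among them was limma-voom on rebuilt reads (adjusted p = 0.00912), where 4.22% of all genes were lower. It also passed when rows under 300 bases were left out (adjusted p = 0.0196, limma), where 310 of 10830 genes were lower. In GRO-seq the Nr5a2 level was 3.16 and 2.76 RPKM in Fxr-LKO livers with GW4064 and vehicle (ratio 1.14, interval 1.07 to 1.23), and 2.30 and 3.60 RPKM in Fxr-Flox livers with GW4064 and vehicle (ratio 0.639, interval 0.610 to 0.669). GW4064 was the lower library in Fxr-Flox livers and the higher one in Fxr-LKO livers.

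Hnf4a, the master factor of hepatocyte identity, had 23.9 and 24.6 RPKM in the GW4064 RNA-seq libraries, against 22.4 and 19.98 RPKM in the vehicle libraries. There was no overlap between treatments, but the log2 change of 0.19 ± 0.08 (SE) did not pass (adjusted p = 0.283, limma). Its GRO-seq level was 25.03 and 23.9 RPKM in Fxr-LKO livers with GW4064 and vehicle and 32.0 and 26.8 RPKM in Fxr-Flox livers with GW4064 and vehicle, a ratio of 1.05 (interval 0.996 to 1.10) and of 1.19 (interval 1.16 to 1.23). Hnf4g, its paralog of the gut, was low, at 0.050 to 0.067 RPKM in RNA-seq.

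The steroid hormone receptors included the lowest GW4064 to vehicle ratio of the 21 receptors in Fxr-Flox GRO-seq. Nr3c1, the glucocorticoid receptor that induces gluconeogenic genes in fasting, had 2.82 and 2.85 RPKM in the GW4064 RNA-seq libraries, against 3.25 and 3.35 RPKM in the vehicle libraries. Both GW4064 libraries were below both vehicle libraries, and the log2 change of -0.21 ± 0.05 (SE) did not pass (adjusted p = 0.139, limma). In GRO-seq, Nr3c1 had 3.31 and 2.93 RPKM in Fxr-LKO livers with GW4064 and vehicle (ratio 1.13, interval 1.04 to 1.22), and 2.50 and 4.42 RPKM in Fxr-Flox livers with GW4064 and vehicle (ratio 0.566, interval 0.537 to 0.595). The vehicle library of Fxr-Flox livers was the highest of the 4, and the Fxr-LKO to Fxr-Flox ratio with vehicle was 0.663 (interval 0.622 to 0.707).

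Nr3c2, the mineralocorticoid receptor, had 0.624 and 0.562 RPKM in the GW4064 RNA-seq libraries, against 0.772 and 0.889 RPKM in the vehicle libraries. These did not overlap, with a log2 change of -0.42 ± 0.11 (SE; adjusted p = 0.163, limma). Nr3c2 was below vehicle with GW4064 in both genotypes in GRO-seq, with a ratio of 0.855 in Fxr-LKO livers (interval 0.804 to 0.910) and 0.694 in Fxr-Flox livers (interval 0.663 to 0.726). The oestrogen receptor Esr1 stayed under the filter at 0.357 to 0.640 RPKM with overlapping groups, and the progesterone receptor Pgr was at 0.067 to 0.086 RPKM.

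The oxysterol receptors, which turn on cholesterol efflux and lipogenic genes, overlapped between treatments in RNA-seq. Nr1h3 (LXRα) had 6.71 and 6.39 RPKM with GW4064 and 6.66 and 6.63 RPKM with vehicle. Nr1h2 (LXRβ) had 5.88 and 6.35 RPKM with GW4064 and 5.92 and 6.04 RPKM with vehicle. The 95% limma intervals of their log2 changes were -0.18 to 0.14 for Nr1h3 and -0.15 to 0.21 for Nr1h2. In GRO-seq, Nr1h2 had 3.13 and 4.07 RPKM in Fxr-LKO livers with GW4064 and vehicle (69 and 91 reads; ratio 0.769, interval 0.554 to 1.06), and 2.93 and 2.855 RPKM in Fxr-Flox livers with GW4064 and vehicle (ratio 1.03, interval 0.814 to 1.29). The Nr1h3 ratio was 0.842 in Fxr-LKO livers (interval 0.708 to 1.00) and 0.823 in Fxr-Flox livers (interval 0.726 to 0.931).

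Of the retinoid receptors, Rara, which binds retinoic acid, had few reads in GRO-seq. Rara had 2.68 and 2.19 RPKM in the GW4064 RNA-seq libraries, against 2.15 and 1.82 RPKM in the vehicle libraries. The groups did not overlap, but the lower GW4064 library and the higher vehicle library nearly touched (log2 change 0.28 ± 0.14 SE; adjusted p = 0.349, limma). In GRO-seq, Rara had 1.14 and 0.541 RPKM in Fxr-LKO livers with GW4064 and vehicle (58 and 28 reads; ratio 2.10, interval 1.32 to 3.43), and 1.57 and 1.09 RPKM in Fxr-Flox livers with GW4064 and vehicle (167 and 155 reads; ratio 1.44, interval 1.15 to 1.81). The Fxr-LKO library with vehicle was the lowest of the 4, with an Fxr-LKO to Fxr-Flox ratio of 0.498 (interval 0.320 to 0.748).

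Rarg was at 0.850 to 1.02 RPKM in RNA-seq with overlapping groups. Rarb, Rxrg and the vitamin D receptor Vdr were under the filter, at 0.245 to 0.296, 0.427 to 0.5 and 0.009 to 0.016 RPKM. Both GW4064 libraries were above both vehicle libraries for Rarb and below them for Rxrg. Among genes that passed the filter 26% lay above and 28.1% below in this way, and the share among genes under it was not counted. In GRO-seq the Rarb ratio was 1.11 in Fxr-LKO livers (interval 0.918 to 1.34) and 0.881 in Fxr-Flox livers (interval 0.760 to 1.02). The Rxrg ratio was 0.724 in Fxr-LKO livers (10 and 14 reads; interval 0.288 to 1.75) and 0.405 in Fxr-Flox livers (17 and 56 reads; interval 0.221 to 0.709). Of the thyroid hormone receptors, Thrb, the main form in hepatocytes, had 2.86 to 3.27 RPKM and Thra 1.24 to 1.34 RPKM, with overlapping groups in both. The 95% limma intervals were -0.29 to 0.12 for Thrb and -0.21 to 0.17 for Thra on the log2 scale. The Thra row shares 3.94% of its length with Nr1d1 on the opposite strand.

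The receptors Nr2f6, Nr2f2, Nr2c2, Nr2c1 and Nr6a1 passed the filter and had log2 changes within 0.08 of 0 in RNA-seq. Nr2f6 had 11.7 and 11.3 RPKM with GW4064 and 11.9 and 11.7 RPKM with vehicle, and its GRO-seq ratio was 1.01 in Fxr-LKO livers (interval 0.839 to 1.23) and 1.03 in Fxr-Flox livers (interval 0.904 to 1.17). Nr2f2 (COUP-TFII) had 3.81 and 4.63 RPKM with GW4064 and 3.81 and 4.18 RPKM with vehicle, overlapping (log2 change 0.07 ± 0.12 SE; adjusted p = 0.776, limma). In GRO-seq, Nr2f2 had 3.54 and 2.99 RPKM in Fxr-LKO livers with GW4064 and vehicle (155 and 133 reads; ratio 1.18), and 3.71 and 4.09 RPKM in Fxr-Flox livers with GW4064 and vehicle (ratio 0.908, interval 0.789 to 1.04). Its paralog Nr2f1 (COUP-TFI) was under the filter, with 0.115 and 0.201 RPKM with GW4064 (12 and 21 reads) and 0.134 and 0.095 RPKM with vehicle (14 and 10 reads), so its groups overlapped. Nr2c2 was at 2.04 to 2.23, Nr2c1 at 1.65 to 1.77 and Nr6a1 at 1.44 to 1.63 RPKM, each with overlapping groups. Nr6a1 (GCNF), a receptor known from germ cells, passed 1.5-fold in GRO-seq of Fxr-LKO livers. It had 2.05 and 1.22 RPKM there with GW4064 and vehicle (635 and 383 reads; ratio 1.68, interval 1.48 to 1.91), and 1.59 and 1.66 RPKM in Fxr-Flox livers with GW4064 and vehicle (ratio 0.957, interval 0.883 to 1.04). The Fxr-LKO vehicle library was the lowest of the 4.

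The oestrogen-related receptors, which act on mitochondrial genes, did not pass the test. Esrra had 4.88 and 4.96 RPKM with GW4064 and 4.98 and 5.24 RPKM with vehicle, non-overlapping but with a log2 change of -0.05 ± 0.06 (SE; adjusted p = 0.648, limma). Its GRO-seq ratio was 1.11 in Fxr-LKO livers (interval 0.867 to 1.42) and 0.718 in Fxr-Flox livers (interval 0.607 to 0.848). Esrrg was under the RNA-seq filter at 0.349 to 0.511 RPKM. It was among the 21 in GRO-seq, with a GW4064 to vehicle ratio of 1.30 in Fxr-LKO livers (interval 1.22 to 1.38) and 1.04 in Fxr-Flox livers (interval 0.998 to 1.09). Esrrb was at 0.039 to 0.060 RPKM in RNA-seq.

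The sign of the RNA-seq difference was then set beside GRO-seq, which shares no library with it. Of the 10 receptors that passed the RNA-seq filter and whose groups did not overlap, 4 had the same sign in Fxr-LKO livers, and 9 had the same sign in Fxr-Flox livers, with Nr2f6 the exception. Over all such genes that were counted in GRO-seq, 56.2% had the same sign in Fxr-LKO livers and 79.1% in Fxr-Flox livers. The shares in Fxr-Flox livers were higher for genes below vehicle (89.0%) than for genes above it (68.3%), and the median log2 ratio of all genes there was -0.09.

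Between genotypes, 0 of the 21 receptors passed 1.5-fold upwards and 2 downwards (Nr1i2 and Rara) in Fxr-LKO against Fxr-Flox livers with vehicle, where 6.14% and 6.08% of genes did. With GW4064, 1 passed upwards (Nr1i3) and 1 downwards (Nr1i2), where 6.87% and 8.24% of genes did. These comparisons share libraries with the GRO-seq comparisons of treatments and are not independent of them. Fewer cells of a type and less RNA per cell cannot be told apart in whole liver, and this holds for every value given here.

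The receptors' partners and target genes were read from lists drawn up for each receptor, in RNA-seq. Of 14 coactivators, none passed limma (2.13% of all genes were higher and 1.15% lower) or limma-voom, and 1 had an unadjusted p under 0.05. Of 9 corepressors 1 was higher. That gene was Nrip1 (RIP140), a corepressor of several receptors, with 4.60 and 4.64 RPKM in the GW4064 libraries, against 1.80 and 1.78 RPKM in the vehicle libraries. The libraries of a treatment were nearly equal, and the log2 change was 1.32 ± 0.05 (SE; adjusted p = 0.01, limma). In GRO-seq, Nrip1 had 1.67 and 1.26 RPKM in Fxr-LKO livers with GW4064 and vehicle, and 5.47 and 1.88 RPKM in Fxr-Flox livers with GW4064 and vehicle.

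Of 12 tested CAR and PXR targets, 2 were higher and none lower, with a median log2 change of 0.21 against -0.00285 for all genes. Over all genes, 2.13% were higher with limma. With limma-voom 4 of the targets were higher, where 4.58% of all genes were. Cyp2c29, a cytochrome P450 of xenobiotic metabolism, had 18.0 and 18.0 RPKM in the GW4064 libraries, against 6.62 and 8.59 RPKM in the vehicle libraries (adjusted p = 0.0414, limma). Por, the reductase that passes electrons to the P450 enzymes, had 17.6 and 18.0 RPKM with GW4064, against 12.1 and 12.1 RPKM with vehicle (adjusted p = 0.0309, limma). In GRO-seq, Cyp2c29 had 151 and 24.0 RPKM in Fxr-LKO livers with GW4064 and vehicle. In Fxr-Flox livers it had 39.9 and 16.1 RPKM with GW4064 and vehicle. GW4064 was thus above vehicle in both genotypes, as for Nr1i2. The ratio of GW4064 to vehicle was larger in Fxr-LKO livers for Cyp2c29, but larger in Fxr-Flox livers for Nr1i2. Cyp2c29 belongs to a family of near-identical copies, among which reads may be shared.

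Of 20 PPARα targets, 3 were higher (Ehhadh, Acaa1b and Acot1, all of fatty acid oxidation or acyl-CoA turnover) and none lower, with a median log2 change of 0.27, where 2.13% of all genes were higher. With limma-voom 8 were higher, where 4.58% of all genes were. In GRO-seq, Ehhadh had 11.5 and 16.7 RPKM in Fxr-LKO livers with GW4064 and vehicle, and 23.6 and 7.65 RPKM in Fxr-Flox livers with GW4064 and vehicle. Acaa1b had 15.15 and 13.5 RPKM in Fxr-LKO livers with GW4064 and vehicle, and 57.3 and 26.2 RPKM in Fxr-Flox livers with GW4064 and vehicle. Acot1 had 4.78 and 4.26 RPKM in Fxr-LKO livers with GW4064 and vehicle, and 7.41 and 3.33 RPKM in Fxr-Flox livers with GW4064 and vehicle. In Fxr-LKO livers GW4064 was thus below vehicle for Ehhadh and above it for the other two. Of 12 glucocorticoid receptor targets, none was higher and 1 was lower, with a median log2 change of -0.18, where 1.15% of all genes were lower. With limma-voom 5 were lower, where 4.22% of all genes were. The gene lower with limma was Tdo2, which degrades tryptophan, with 19.1 and 21.1 RPKM with GW4064, against 31.4 and 30.3 RPKM with vehicle (adjusted p = 0.0462, limma). Of 11 LXR targets, 1 was higher (Abcg5, a sterol exporter), and of 5 thyroid hormone receptor targets 1 was higher (Thrsp). Over all genes, 2.13% were higher with limma. With limma-voom 1 LXR target was higher and 1 lower, and 1 thyroid hormone receptor target was higher. None of 3 retinoic acid receptor targets or 11 HNF4A targets passed limma. At an unadjusted p under 0.05 (limma) there were 2 of each. At the same p there were 10 PPARα, 6 CAR and PXR, 5 glucocorticoid receptor, 4 LXR and 2 thyroid hormone receptor targets. Of all genes, 21.2% had such a p. With limma-voom 1 retinoic acid receptor target was higher and 1 HNF4A target lower, where 4.58% and 4.22% of all genes were. Among the 3 retinoic acid receptor targets, Cyp26a1 had 6.90 and 9.02 RPKM with GW4064, against 0.404 and 1.15 RPKM with vehicle. It missed the threshold (adjusted p = 0.0619, limma). Of the 9 family members outside the set that were tested, Nr0b2 was higher, and Nr1h4 and Rxra, the shared partner, were lower (Rxra 8.96 and 8.82 RPKM with GW4064, against 12.6 and 12.6 RPKM with vehicle; adjusted p = 0.0358, limma).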

How the data were processed

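Liver RNA-seq (2 GW4064 and 2 vehicle libraries) and GRO-seq (1 library for each genotype and treatment) were analysed from the deposited RPKM values. The authors mapped reads to mm10 with STAR (version 2.7.3a per the submitters) and made gene values with HOMER, 1 column per library. Rows span the gene, introns included. The study's methods name rRNA removal and a Kapa mRNA kit, and the labels a TruSeq kit. RPKM times row length times a library total gave whole reads (100% within 0.15), which set the depths and counting intervals given. The members and lists were chosen with earlier results of these data known.

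RNA-seq was tested with limma 3.58.1 in R 4.3.3 on log2(RPKM + 0.1), keeping genes whose mean reached 0.5 RPKM, eBayes with trend=TRUE and robust=FALSE, Benjamini-Hochberg adjustment and a threshold of adjusted p under 0.05. The study used DESeq2 on counts, which the RPKM table does not give. Fold changes on this scale understate those of low genes. GRO-seq ratios are of RPKM, and 0.1 RPKM was added for the median over all genes and for counts past 1.5-fold, the counts over genes with 20 reads or more in either library. Named genes were all 34 receptors, in full those past the RNA-seq threshold, those past 1.5-fold in Fxr-Flox GRO-seq and the 10 with the highest RNA-seq mean, and list genes past the threshold. Other receptors with non-overlapping RNA-seq groups, Pparg, Nr6a1 and the list gene Cyp26a1 were added after their values were seen. Alternatives were other added values, filters, scalings, variance models, the replicate block, leaving out each library, limma-voom on rebuilt reads, a minimum row length and other thresholds. Replicates differed by more than sampling noise (chi-square per degree of freedom 4.84 for vehicle and 5.97 for GW4064).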

Additional observations from a re-analysis of the deposited data

Results flagged for a closer look

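The GW4064 to vehicle ratio in GRO-seq pointed in opposite directions in the 2 genotypes, outside the counting interval in both, for 4 of the 21 receptors counted. The log2 ratio of Ppara was 0.06 in Fxr-LKO livers and -0.77 in Fxr-Flox livers, that of Nr1i3 0.25 and -0.25, that of Nr5a2 0.19 and -0.65, and that of Nr3c1 0.17 and -0.82, with Fxr-LKO given before Fxr-Flox for each. The Fxr-LKO counting interval of Ppara, 0.0019 to 0.11 on the log2 scale, only just excluded no change. How many of all genes meet the same rule was not counted, so the 4 of 21 stand without a share to compare. Each value compares 1 library with 1 library, and the difference between genotypes was not tested.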

How the results depend on the processing

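Of the 20 receptors fitted in RNA-seq, 1 (Ppara) was lower and 0 were higher. Nr1i2 was called higher, a count of 1, with limma-voom on rebuilt reads, with rows of at least 300 bases and at an adjusted p under 0.1. The count of lower receptors was 0 with a mean of at least 0.1 RPKM, with no filter, with trend=FALSE and at an adjusted p under 0.01, and 0 to 0 with 1 library left out. It was 2 (Nr5a2 and Ppara) with a mean of at least 1 RPKM, robust=TRUE, rows of at least 300 bases and an adjusted p under 0.1, and 3 (Nr3c2, Nr5a2 and Ppara) with limma-voom. Median centring kept the count at 1 but with Nr5a2 in place of Ppara. Nr5a2 was called in 5 of 17 alternatives, with log2 changes from -0.69 to -0.44. Ppara was called in 8 of 17 alternatives, with log2 changes from -0.54 to -0.42 and adjusted p from 0.0144 to 0.201, and Nr1i2 in 2 of 17, with 0.77 to 1.24 and adjusted p from 0.0196 to 0.284. Libraries with the same replicate number did not deviate together (correlation -0.0215), so they are not taken as pairs, and with the replicate block 0 receptors were lower and 0 higher. Over all genes, 243 were higher and 131 lower, against 522 and 481 with limma-voom, 424 and 310 with rows of at least 300 bases, 0 and 0 with the replicate block (2327 at an unadjusted p under 0.05), and 32 and 11 without vehicle replicate 1. Leaving out any other library gave 0 and 0, where 1590 to 1958 genes had p under 0.05 before adjustment. In GRO-seq, the count past the fold threshold moved at 2-fold to 1 of 4 for GW4064 over vehicle in Fxr-Flox livers, 0 of 3 in Fxr-LKO livers, 0 of 2 for Fxr-LKO over Fxr-Flox with vehicle and 1 of 2 with GW4064. With 1 RPKM added it was 1 in Fxr-LKO livers (Nr1i2) and 0 between genotypes with vehicle. No receptor that was called changed direction, and the causes of these moves were not tested. Depth limits Rara, with 28 reads in the Fxr-LKO vehicle library and 58 in the Fxr-LKO GW4064 library.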

Other observations

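Esr1, the oestrogen receptor, was under the filters of both assays. In GRO-seq it had 0.238 and 0.320 RPKM in Fxr-LKO livers with GW4064 and vehicle (ratio 0.744, counting interval 0.646 to 0.854), and 0.272 and 0.213 RPKM in Fxr-Flox livers with GW4064 and vehicle (ratio 1.28, interval 1.16 to 1.40). Rorb, a retinoid-related orphan receptor, had 16 and 16 reads in the Fxr-LKO libraries and 27 and 33 reads in the Fxr-Flox libraries with GW4064 and vehicle, but 3 and 0 reads in the GW4064 and 1 and 1 reads in the vehicle RNA-seq libraries.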
